A study of Mus musculus with 34 samples.

Results

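Cortical expression in R6/2 mice was compared with that of WT mice at 15 wk of age, using every array of both groups, 17 of the 34 arrays of the series. R6/2 mice carried a mutant human HTT exon 1 transgene on a CBA x C57Bl/6 background, expressed from the human HTT promoter as 1 transgenic line, and WT mice carried neither the transgene nor a targeted Hdac4 allele. There were 8 WT and 9 R6/2 arrays, with both sexes in each group, and the values were log2 expression levels of 45037 Affymetrix probe sets. In the same cross, 8 Hdac4HET arrays, from mice with 1 targeted Hdac4 allele, and 9 Dble::R6/2 arrays, from mice with that allele and the transgene, gave a second comparison of transgene carriers with non-carriers that shared no array with the first.

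The transgene encodes the first exon of huntingtin with a long polyglutamine tract, a fragment that aggregates in the cytoplasm and nucleus of neurons, and R6/2 mice develop a rapid movement disorder that is far advanced at this age. Loss of neuronal transcripts is the best-known feature of such tissue. The cortex also contains astrocytes, microglia, oligodendrocytes and vessels, and its neurons are post-mitotic, so that genes of DNA replication and of the cell cycle are normally low in it. The immediate early, synaptic and cholesterol genes were left out of the ranking of single genes, and the account below follows the other functions.

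Array medians lay between 5.44 and 5.50. All 9 markers of cortical excitatory neurons lay above a background reference of 4.63, the 95th percentile of WT means of 44 olfactory receptor probe sets, with Camk2a at a WT mean of 13.3, Slc17a7 at 10.2 and Tbr1 at 9.13. All 5 striatal markers, Penk (9.48) and Tac1 (8.78) among them, and 7 of 9 markers of other brain regions, such as Neurod1 (8.27) and Oxt (7.62), also lay above it, and the cerebellar markers Gabra6 (3.11) and Barhl1 (3.96) lay under it. R6/2 replicate 2 carried epidermal transcripts (mean of 12 markers 5.97, against 4.64 to 4.94 in the other 16 arrays) and had the lowest median correlation with its own group, 0.977, where the next lowest R6/2 array had 0.990. WT replicates 2, 6 and 7 were high in pituitary transcripts and are called the pituitary-high WT arrays. R6/2 replicate 3 was the highest array in choroid plexus markers. The mean of striatal markers was highest in WT replicate 3 (8.30) and R6/2 replicate 3 (8.09), against 6.74 to 7.84 in the other arrays. The sex in the labels did not match the level of Xist in 6 of the 17 arrays, 5 WT and 1 R6/2. The pituitary-high WT arrays were all among the 5 WT arrays with high Xist. All arrays were kept. List counts without the pituitary-high WT arrays, or without R6/2 replicates 2 or 3, are given beside many of the results. The arrays with mismatched sex were not left out as a set.

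In all, 12127 probe sets (26.9%) passed at a limma adjusted p of 0.05 or less. With each gene represented by its probe set of highest mean, 5827 of 18193 genes passed (32%), of which 3674 were higher (20.2%) and 2153 lower (11.8%) in R6/2. Of these, 3483 had several probe sets. Another probe set was called the same way in 1467 of them and the opposite way in 372. Among the 13023 genes above the background reference in either group, 27% were higher and 15.5% lower, and the gene lists below, most of whose members lay above that reference, are set beside these shares. Without the pituitary-high WT arrays the shares were 18.5% and 11.5%, and these stand beside the list counts without those arrays. In whole cortex, fewer cells of a type and less RNA per cell cannot be told apart. The changes were mostly modest. The median size was 0.35 on the log2 scale for genes that rose and 0.40 for genes that fell, and 70 genes rose and 134 fell by more than 2-fold. The genes that fell by more than 2-fold had a median WT level of 8.18, and those that rose by more than 2-fold one of 6.03, with 17 of the 70 at or under the background reference in WT. Every R6/2 array lay outside the WT range in 1147 genes that rose and 693 that fell, and the 2 groups failed to overlap in 10.1% of all genes. Genes that fell had a median genomic span of 29.3 kb (RefSeq, GRCm38.p6), against 22.4 kb for genes that rose and 23.5 kb for genes that did not pass, all above the background reference. The 25th and 75th percentiles overlapped widely, at 11.2 and 80.3 kb for falls and 9.78 and 51.3 kb for rises. Median WT levels also differed, at 8.42 for falls, 7.83 for rises and 7.57 for genes that did not pass. The part of level in the spans was not tested.

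The largest changes in each function are given as the lowest, median and highest array value of each group. Across 40 function lists, the share of members that rose was highest in DNA replication, nuclear pore and transport, and chromatin remodelling, and the share that fell was highest in ion pumps and exchangers and in fatty acid and phospholipid synthesis.

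**Figure D1:**
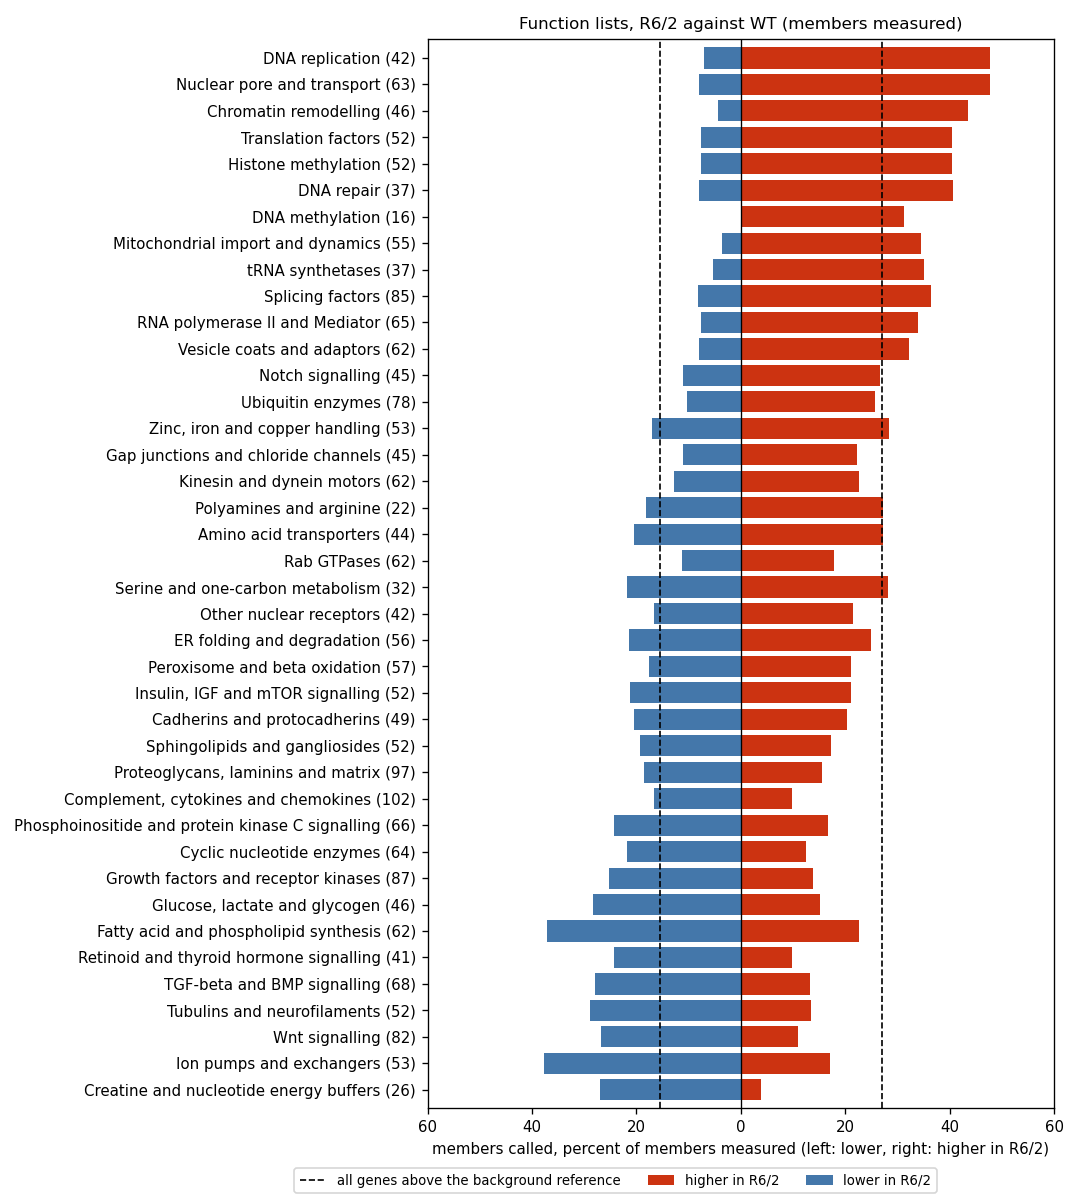
Share of the measured members of each of 40 function lists that passed at a limma adjusted p of 0.05 or less, lower in R6/2 to the left and higher to the right, with the number of members measured after each name. Dashed lines mark the shares among all 13023 genes above the background reference (27% higher, 15.5% lower), and DNA replication (47.6% higher) and ion pumps and exchangers (37.7% lower) lie near the ends.

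In the DNA replication machinery more genes rose than fell. Of 42 measured, 20 rose (47.6%), 3 fell and 19 did not pass, with a median change of 0.20 on the log2 scale against 0.05 for all genes above background. The promoters of 2 subunits of the MCM helicase, which unwinds DNA at the replication fork, are printed here because they carry motifs of the type bound by E2F factors, the main regulators of replication genes. Each is the RefSeq stretch from 250 bases before to 50 bases after the gene start on GRCm38.p6, 5′ to 3′ on the gene's strand, with matches in capitals to TTTCCCGC, TTTGGCGC, TTTCGCGC or TTTGCCGC on either strand, overlapping matches included.
Mcm7, minus strand, chr5:138171834-138172133: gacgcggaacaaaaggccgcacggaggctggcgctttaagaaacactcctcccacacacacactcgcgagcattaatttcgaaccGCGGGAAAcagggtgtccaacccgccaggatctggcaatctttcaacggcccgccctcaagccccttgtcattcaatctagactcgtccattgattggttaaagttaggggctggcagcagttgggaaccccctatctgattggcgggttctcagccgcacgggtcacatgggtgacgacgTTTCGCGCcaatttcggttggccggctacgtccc
Mcm6, minus strand, chr1:128359656-128359955: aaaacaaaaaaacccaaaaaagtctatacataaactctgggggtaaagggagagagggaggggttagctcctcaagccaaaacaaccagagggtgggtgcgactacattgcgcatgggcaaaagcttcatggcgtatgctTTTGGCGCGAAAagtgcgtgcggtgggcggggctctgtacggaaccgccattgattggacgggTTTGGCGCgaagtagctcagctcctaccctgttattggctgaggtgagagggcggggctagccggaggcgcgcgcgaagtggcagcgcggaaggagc
Such a match was present in 2.32% of the promoters of all 27025 genes of that table. Among the 34 replication genes with an entry it was present in 12, namely 6 of the 18 that rose and 6 of the 13 that did not pass. A match describes these letters alone.

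Mcm7 read 7.54, 7.79 and 8.09 in WT and 8.47, 8.71 and 9.13 in R6/2. The groups did not overlap, and the change was 0.96 ± 0.09 (SE, adjusted p = 4.03e-07), with all 4 of its probe sets called the same way. The helicase subunits Mcm6 (0.64) and Mcm5 (0.65), named after their values were seen, rose with it, and so did Rfc4 (0.88 ± 0.13), a subunit of the clamp loader. Rpa3 (-0.40), the smallest subunit of the single-strand binding complex, and Rfc5 (-0.35) fell. The mean of the list was higher in every R6/2 array than in any WT array, and it was highest in R6/2 replicate 2 (0.51 above the WT mean), the array with epidermal transcripts, then in replicate 9 (0.36), with the other 7 between 0.15 and 0.22. Leaving out the pituitary-high WT arrays, 14 members rose and 3 fell, and leaving out R6/2 replicate 2, 19 rose and 3 fell.

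Cks1b, Cks2, Tpx2 and Stil, which act in cell division, were among the 20 largest rises, and cell cycle genes were not counted as a list. Cks1b, which encodes a small protein bound to cyclin-dependent kinases, read 6.12, 6.50 and 6.95 in WT and 7.92, 8.19 and 8.70 in R6/2. No array overlapped, and the change of 1.71 ± 0.13 (adjusted p = 2.46e-08) was a 3.28-fold rise. Its paralogue Cks2 rose by 1.97. The spindle factor Tpx2 (1.89) and the centriole duplication factor Stil (1.41) rose from WT means under the background reference. DNA repair genes rose in 15 of 37 (40.5%) and fell in 3, with a median of 0.16. Ercc3, a helicase of transcription and nucleotide excision repair, rose by 0.80 (adjusted p = 1.25e-06), and the polymerase of base excision repair, Polb, fell by 0.26. The count of repair genes that rose was 10 without the pituitary-high WT arrays.

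**Figure D2:**
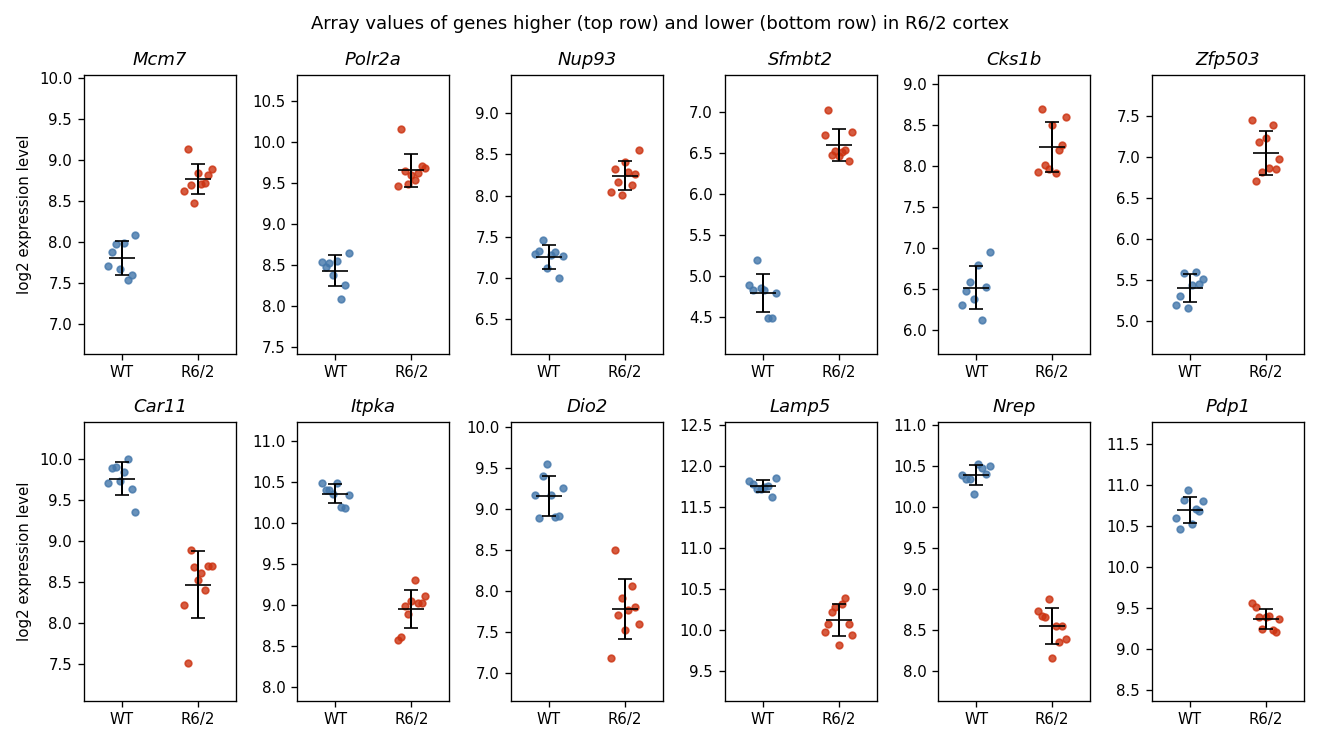
Log2 expression level in each array for 6 genes that rose and 6 that fell, with WT (n = 8) in blue, R6/2 (n = 9) in red and bars at the mean and SD of each group, every panel spanning the same number of log2 units. The groups do not overlap in any of the 12 panels, and R6/2 replicate 2 is the low array in Car11 at 7.51.

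Chromatin regulators mostly rose where they changed. Of 52 histone methyltransferases and demethylases, 21 rose (40.4%) and 4 fell, with a median change of 0.19, and of 46 subunits of nucleosome remodelling complexes, 20 rose (43.5%) and 2 fell, with a median of 0.14. For both lists the mean of every R6/2 array was above that of every WT array. Bcl7c, a subunit of the BAF complexes, read 7.29, 7.55 and 7.72 in WT and 8.24, 8.52 and 8.62 in R6/2, a change of 0.93 ± 0.08 without overlap, on 1 of its 4 probe sets. Srcap, an ATPase that deposits a histone variant, rose by 0.56, the arginine methyltransferase Prmt2 by 0.62 and the histone demethylase Kdm6b by 0.65. The remodelling subunits that fell, Actl6b (-0.28) and Smarcd3 (-0.32), belong to the forms of the BAF complex found in neurons and muscle, and Prmt8 (-0.60), an arginine methyltransferase that fell, is known as the brain-specific member of its family. Of 16 DNA methylation genes, 5 rose (31.25%, against 27% of genes above background) and 11 did not pass. Dnmt1, which copies methylation after replication, was at 0.41. In the absence of the pituitary-high WT arrays, 15 histone methylation genes, 14 remodelling genes and 3 DNA methylation genes rose. The share for DNA methylation was then 18.75%, near the 18.5% of genes above background.

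Several transcriptional regulators rose far more than these. Pou4f1, a homeodomain regulator of sensory neuron identity, was the largest rise of all 18193 genes (3.48). It read 3.48, 3.93 and 4.44 in WT, under the background reference, and 7.05, 7.29 and 8.39 in R6/2. Its promoter stood apart in base composition from that of Lamp5, a lysosome-associated protein of cortical neurons, which had one of the 5 largest negative t statistics. Both are shown as above, with CG dinucleotides, the site of DNA methylation, in capitals.
Pou4f1, minus strand, chr14:104467950-104468249: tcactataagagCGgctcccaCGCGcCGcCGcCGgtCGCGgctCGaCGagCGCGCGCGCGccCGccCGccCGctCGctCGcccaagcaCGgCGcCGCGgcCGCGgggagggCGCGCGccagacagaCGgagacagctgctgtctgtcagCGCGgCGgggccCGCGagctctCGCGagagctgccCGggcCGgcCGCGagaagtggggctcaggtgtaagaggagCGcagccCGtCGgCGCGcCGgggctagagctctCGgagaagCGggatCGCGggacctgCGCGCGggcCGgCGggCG
Lamp5, plus strand, chr2:136052089-136052388: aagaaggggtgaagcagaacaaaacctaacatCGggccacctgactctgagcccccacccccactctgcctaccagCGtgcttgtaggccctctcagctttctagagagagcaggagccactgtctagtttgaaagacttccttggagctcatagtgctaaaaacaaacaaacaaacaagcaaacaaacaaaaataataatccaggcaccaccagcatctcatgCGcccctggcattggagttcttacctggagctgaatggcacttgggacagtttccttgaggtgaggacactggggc
The Pou4f1 promoter held 57 CG dinucleotides and that of Lamp5 held 3, against a median of 7 over the promoters of all genes in the table (25th and 75th percentiles 3 and 21). Sfmbt2, a Polycomb-group protein, read 4.48, 4.82 and 5.18 in WT and 6.40, 6.52 and 7.02 in R6/2 (1.81 ± 0.10, adjusted p = 4.53e-10). Zfp503, a zinc finger regulator of striatal development, read 5.15, 5.44 and 5.59 and 6.70, 6.98 and 7.45, a change of 1.65 ± 0.10. Neither gene overlapped between the groups. Tal1, a helix-loop-helix factor of blood and midbrain development, rose by 1.67 and the nuclear non-coding RNA Neat1 by 1.61, the latter with 7 of 9 R6/2 arrays above the WT range. Dlx1as, the antisense transcript of an interneuron homeobox gene, fell by 1.81.

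In the transcription and splicing lists more members rose than fell, and most did not pass. Polr2a, the largest subunit of RNA polymerase II, read 8.09, 8.50 and 8.65 in WT and 9.47, 9.62 and 10.16 in R6/2. The groups did not overlap, and the change was 1.22 ± 0.09 (adjusted p = 2.41e-08), on 1 of 2 probe sets. Among 65 subunits of the polymerase, its general factors and Mediator, 22 rose (33.8%) and 5 fell, with a median of 0.13. Taf5, of TFIID, rose by 0.64, and the Mediator subunit Med27 fell by 0.52, a call lost without the pituitary-high WT arrays (adjusted p = 0.105). Of 85 splicing factors, 31 rose (36.5%) and 7 fell, with a median of 0.06 against 0.05 for all genes above background. The core spliceosome protein Snrpb (0.78) and the RNA-binding protein Ewsr1 (0.73) led the rises. The 2 largest falls were in tissue-restricted regulators, Qk (-0.49), best known in oligodendrocytes, and the neuronal Rbfox1 (-0.41).

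Of 63 genes of the nuclear pore, lamina and nuclear transport, 30 rose (47.6%) and 5 fell, with a median of 0.17. Nup93, a scaffold protein of the pore, read 6.99, 7.28 and 7.46 in WT and 8.00, 8.26 and 8.55 in R6/2, a change of 0.99 ± 0.08 (adjusted p = 4.45e-08) without overlap. The export receptor Xpo4 rose by 0.90, while the pore protein Nup160 fell by 0.49 in this comparison and read 0.12 in Dble::R6/2 against Hdac4HET, where it did not pass. Translation factors rose in 21 of 52 (40.4%) and fell in 4, with Gspt2 (0.46), a release factor, and Eif5b (0.45), which joins the ribosomal subunits, at the top. Of 37 tRNA synthetases 13 rose (35.1%) and 2 fell, with Hars at 0.56 and Aars at 0.53. With the pituitary-high WT arrays left out, rises were 20 of 63 for the nuclear pore, 23 of 85 for splicing, 18 of 65 for the polymerase and Mediator, 11 of 37 for the synthetases and 9 of 52 for translation, and falls were 2 of 65 for the polymerase and Mediator and 4 of 85 for splicing. The share for translation is 17.3%, under the 18.5% of genes above background.

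**Figure D3:**
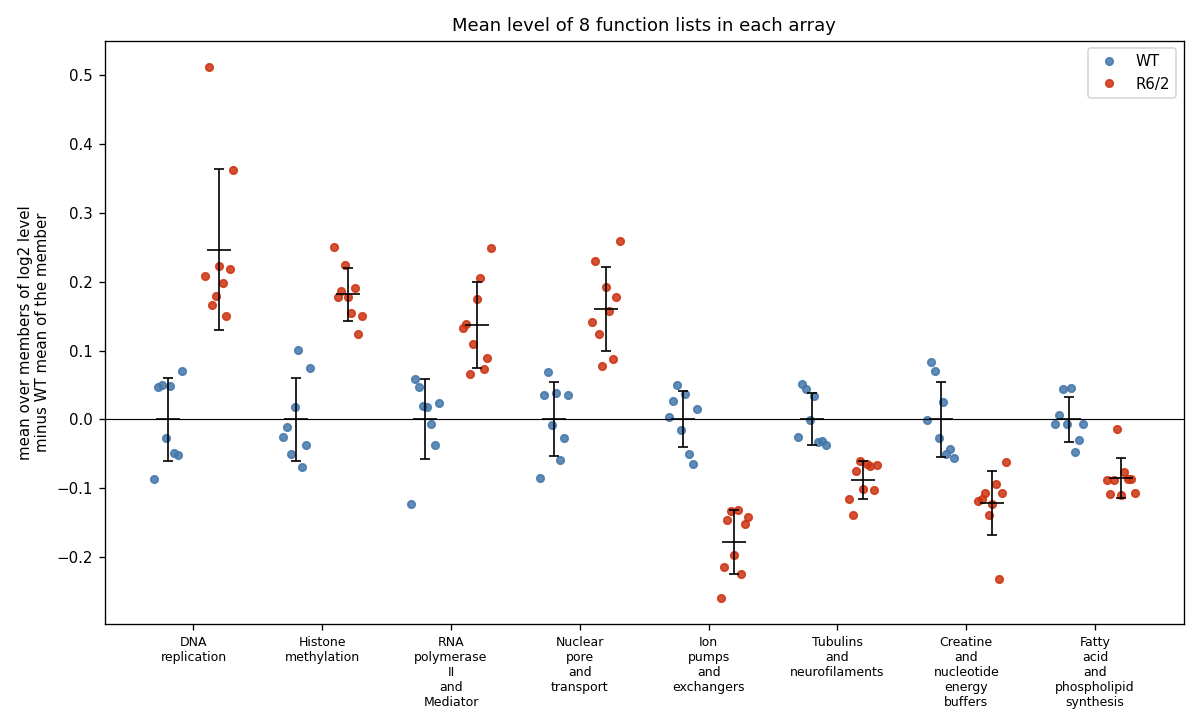
Mean over the members of 8 function lists of the log2 level minus the member's WT mean, 1 point per array (WT n = 8, R6/2 n = 9), with bars at the mean and SD of each group. The groups separate in 7 of the lists and overlap in fatty acid and phospholipid synthesis, and in DNA replication R6/2 replicate 2 is the highest point at 0.51.

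Among the functions that fell, ion pumps and exchangers held the highest share of falls. Of 53 measured, 20 fell (37.7%) and 9 rose, with a median change of -0.16, and the mean of the list lay between 0.13 and 0.26 below WT in the R6/2 arrays, with no overlap. The carbonic anhydrase family, which interconverts carbon dioxide and bicarbonate, stood at the top of the list. Car11, a member without catalytic activity, was at 9.36 in the lowest WT array and 9.78 in the median one, and read 7.51, 8.61 and 8.89 in R6/2. R6/2 replicate 2 was the lowest array, the groups did not overlap, and the change was -1.29 ± 0.15 (adjusted p = 2.94e-06). Car8, another non-catalytic member, read 6.95, 7.33 and 7.68 and 5.85, 6.01 and 6.32, a change of -1.23 ± 0.10 on 1 of its 3 probe sets. Car2 (-1.01), Car4 (-0.78), Car12 (-0.78) and Car10 (-0.73), named after their values were seen, fell as well, whereas Car14 (0.52) and Car13 (0.47) rose, the latter from under the background reference. When the pituitary-high WT arrays were left out, 15 members fell and 3 rose.

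Creatine and nucleotide energy buffers fell in 7 of 26 (26.9%) and rose in 1, with a median of -0.07. Gatm, the first enzyme of creatine synthesis, fell by 0.58 and Prkag2, a regulatory subunit of AMP-activated kinase, by 0.56. Pdp1, the phosphatase that activates pyruvate dehydrogenase, read 10.46, 10.70 and 10.94 in WT and 9.20, 9.39 and 9.56 in R6/2. It had one of the 5 largest negative t statistics, with a change of -1.33 ± 0.07 (adjusted p = 4.14e-10). Of 46 genes of glucose, lactate and glycogen handling, 13 fell (28.3%) and 7 rose (9 and 4 without the pituitary-high WT arrays), with the monocarboxylate transporter Slc16a6 at -1.07. Of 52 tubulins, neurofilaments and their partners, 15 fell (28.8%) and 7 rose, with a median of -0.11 that was -0.05 without R6/2 replicate 2. Neurofilament medium chain Nefm (-0.70) and the tubulin cofactor Tbce (-0.67) fell most, and Vim (0.60), a filament of glia and vessels, rose.

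Lipid genes outside sterol synthesis were mixed. Of 62 genes of fatty acid and phospholipid synthesis, 23 fell (37.1%) and 14 rose (22.6%), with a median of -0.07. Thrsp, a thyroid-hormone-responsive regulator of lipogenesis, read 7.56, 8.29 and 8.51 in WT and 5.79, 6.74 and 7.64 in R6/2, with 8 of 9 arrays below the WT range (-1.52 ± 0.23). The desaturase Fads2 fell by 0.77 (adjusted p = 0.0217), with R6/2 replicate 2 far below the other R6/2 arrays at 5.75 and a change of -0.84 (adjusted p = 0.0637) without the pituitary-high WT arrays. The phosphatidylserine synthase Ptdss1 rose by 0.52. Plin4, a coat protein of lipid droplets, was among the 20 largest rises (1.61), with 7 of 9 R6/2 arrays above the WT range. Ugt8a, which makes galactosylceramide of myelin, fell by 1.12, with 6 of 9 below it. Sphingolipid genes (9 higher and 10 lower of 52) and genes of peroxisomes and fatty acid oxidation (12 higher and 10 lower of 57) went both ways. Of the 62 synthesis genes, 14 fell and 9 rose without the pituitary-high WT arrays.

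Thyroid hormone and nuclear receptor genes contained some of the larger falls. Dio2, the deiodinase that activates thyroid hormone in astrocytes, read 8.89, 9.17 and 9.55 in WT and 7.18, 7.77 and 8.50 in R6/2. The groups did not overlap, and the change was -1.37 ± 0.14 (adjusted p = 9.78e-07) with all 3 probe sets called the same way. In the list of retinoid and thyroid genes 10 of 41 fell (24.4%) and 4 rose, and 2 rose without the pituitary-high WT arrays. The glucocorticoid receptor Nr3c1 (-0.72) and the clock repressor Nr1d1 (-0.64) fell without overlap, and the oestrogen receptor Esr1 (0.86) rose.

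Wnt, TGF-beta, growth factor, phosphoinositide and cyclic nucleotide genes fell more often than they rose. Of 82 Wnt genes 22 fell (26.8%) and 9 rose (11%), with a median of -0.06. Tle2, a Groucho-type corepressor, read 7.29, 7.45 and 7.65 in WT and 5.90, 6.16 and 6.54 in R6/2 (-1.28 ± 0.08, no overlap). Rspo3, a secreted Wnt agonist, rose by 0.81. Of 68 TGF-beta and BMP genes, 19 fell (27.9%) and 9 rose, with the activin antagonist Fst at -0.83 and Smad4, the common mediator, at 0.60. Of 87 growth factors and receptor kinases, 22 fell (25.3%) and 12 rose, led by the related receptors Tyro3 (-1.35 ± 0.13) and Axl (-1.25 ± 0.19), which clear dying cells and damp inflammation, both without overlap. Of these 87, 4 rose and 16 fell without the pituitary-high WT arrays. Notch genes counted 12 of 45 higher and 5 lower (7 and 3 without those WT arrays), and the Notch targets Hey1 (-0.67) and Nrarp (-0.51) fell.

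Within phosphoinositide signalling (16 lower and 11 higher of 66), Itpka, a neuronal kinase of inositol trisphosphate, read 10.18, 10.37 and 10.49 in WT and 8.57, 9.02 and 9.30 in R6/2. The change of -1.40 ± 0.09 (adjusted p = 3.12e-09) left 37.8% of the WT level. Cyclic nucleotide enzymes fell in 14 of 64 (21.9%) and rose in 8, with the guanylate cyclase subunit Gucy1a1 at -0.84 and the phosphodiesterase Pde7b at -0.75. In insulin, IGF and mTOR signalling 11 rose and 11 fell of 52. There Ddit4l, an inhibitor of mTOR, read 8.64, 9.20 and 9.57 in WT and 6.62, 7.08 and 7.40 in R6/2 (-2.11 ± 0.13), and the IGF-binding protein Igfbp5 fell by 1.45. The groups overlapped in neither, and the forkhead factor Foxo1 rose by 0.46.

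In each protein handling and trafficking list more members rose than fell, as was also so among all genes above background. Vesicle coats and adaptors rose in 20 of 62 (32.3%) and fell in 5, and mitochondrial import and dynamics rose in 19 of 55 (34.5%) and fell in 2, with the inner membrane protease Oma1 at 0.62. Without the pituitary-high WT arrays the mitochondrial rises were 9 of 55 (16.4%), under the 18.5% of genes above background. Ubiquitin enzymes rose in 20 of 78 (25.6%) and fell in 8 (10.3%), both shares under those of all genes above background (27% and 15.5%), with the clock-controlled deubiquitinase Usp2 at -0.80. Folding and degradation in the endoplasmic reticulum split into 14 higher and 12 lower of 56, with Sdf2l1 at -0.93. Rab GTPases (11 higher, 7 lower of 62) and motors (14 higher, 8 lower of 62) passed in 29.0% and 35.5% of members, against 42.5% of all genes above background. Rab4a (0.74), of early endosomes, and Rab40b (-1.25) were the largest rise and fall among the Rab genes. Without the pituitary-high arrays, rises numbered 13 for ubiquitin, 8 for folding and 9 for motors, and 6 folding genes and 5 motors fell.

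Transporters and small-molecule enzymes held both rises and falls. Amino acid transporters split into 12 higher and 9 lower of 44. Slc7a10, which carries serine and glycine in astrocytes, fell by 1.06 and Slc38a2, a glutamine carrier, rose by 0.61. Argininosuccinate lyase, Asl, was the largest rise in the polyamine and arginine list (0.86 ± 0.07, no overlap), which held 6 rises and 4 falls of 22. One-carbon genes (9 higher, 7 lower of 32) included Shmt2 (0.57), the mitochondrial serine hydroxymethyltransferase, and Aldh1l1 (-0.68), an astrocyte enzyme. Metal handling (15 higher, 9 lower of 53) included the iron transporter Slc11a2 (0.68) and the zinc transporter Slc39a2 (-1.16). Without the pituitary-high WT arrays, rises numbered 7 for amino acid transporters, 3 for the arginine list, 3 for one-carbon genes and 8 for metal handling.

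Matrix and cell surface genes gave some of the strongest single falls. Hapln1, the link protein of perineuronal nets, read 6.66, 7.02 and 7.18 in WT and 5.07, 5.25 and 5.82 in R6/2, with all 4 probe sets called the same way (-1.62 ± 0.11). Fmod, a small collagen-binding proteoglycan, rose by 1.11, with all 6 probe sets called the same way. In Dble::R6/2 against Hdac4HET Fmod read 0.32 and did not pass. The list as a whole split into 15 higher and 18 lower of 97. Among complement, cytokine and chemokine genes 17 of 102 fell (16.7%) and 10 rose. Il33, an alarmin of astrocytes and oligodendrocytes, read 8.14, 9.02 and 9.19 in WT and 6.68, 7.15 and 8.43 in R6/2 (-1.65 ± 0.20), with 8 of 9 arrays below WT. The complement inhibitor Serping1 rose by 0.82 and the interferon-induced Ifit1 by 1.57.

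Lamp5 and Nrep were, with Pdp1, among the 5 falls with the largest t statistics. Lamp5 read 11.62, 11.76 and 11.86 in WT and 9.82, 10.07 and 10.39 in R6/2, a change of -1.63 ± 0.07 (adjusted p = 4.09e-11). Nrep, a neuronal regeneration protein, read 10.15, 10.39 and 10.52 and 8.16, 8.55 and 8.88 (-1.84 ± 0.09). In both, the gap between the groups was wider than the range within either. Of the 500 brightest genes 117 rose (23.4%) and 113 fell (22.6%), and the largest rise among them was that of Bex1 (0.62), an adaptor of neurotrophin signalling.

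Markers of cell types differed between the groups as well, some lower and some higher in R6/2. Among 12 astrocyte markers 8 were lower and 1 was higher, with Aqp4 at -0.77 and Gfap, which rises in reactive astrocytes, at 0.58. Microglia markers fell in 8 of 13, with P2ry12 at -2.20 and a mean over the markers from -0.89 to -0.31 relative to WT in the R6/2 arrays, just below the lowest WT array. Oligodendrocyte markers fell in 6 of 13, and in 2 of 13 without the pituitary-high WT arrays, with medians of -0.28 and -0.25. Relative to WT, their mean was -0.69 in WT replicate 4, lower than in any R6/2 array (-0.47 to -0.13). Inhibitory neuron markers fell in 5 of 7 (median -0.62). Excitatory neuron markers fell in 5 of 9 (median -0.24) and rose in 1, Neurod2 (0.29). Endothelial and mural markers rose in 3 of 12 (25%), under the 27% of genes above background, and choroid plexus markers in 4 of 7. Without the pituitary-high WT arrays 1 of each rose. The medians were then 0.03 and 0.297, against 0.06 and 0.299 with all arrays. Of the choroid plexus markers Otx2, Folr1, Kl and Kcne2 lay under the background reference in both groups. Kl (0.45) and Kcne2 (0.30) were nevertheless among those counted as rises. Ttr read 8.41, 9.20 and 11.19 in WT and 9.75, 10.67 and 12.99 in R6/2 and rose by 1.14 (adjusted p = 0.0476), and R6/2 replicate 3 was its highest array. Leaving out any single array among WT replicates 2, 4, 5, 6 and 7 and R6/2 replicates 3, 4, 5, 6, 8 and 9 ended its call (adjusted p from 0.0622 to 0.101). Sostdc1, a secreted antagonist of BMP and Wnt, rose by 0.56 without overlap. The mean over the markers was 1.03 above WT in R6/2 replicate 3 and between 0.15 and 0.44 in the other R6/2 arrays, and 3 of the 7 markers rose without that array. Without the pituitary-high WT arrays excitatory neuron markers fell in 3 of 9 and none rose. The part of these markers in the function lists was not tested. Prl (-3.63), Gh (-2.65) and Pomc (-1.61) fell among pituitary markers. Without the WT arrays high in pituitary transcripts, Prl changed by -1.25, Gh by -1.22 and Pomc by -0.87 (adjusted p = 0.0151, 0.0421 and 0.00381).

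The second comparison asked whether the same genes differed in other samples of the cross. There the sex in the labels did not match the level of Xist in Hdac4HET replicates 4, 5, 6, 7 and 8 and Dble::R6/2 replicates 2, 3, 6 and 7. Between Dble::R6/2 and Hdac4HET, 18.3% of genes were higher and 11.7% lower. Of the 3674 genes that rose in R6/2, 3596 (97.9%) were also higher in Dble::R6/2 than in Hdac4HET and 2516 (68.5%) passed in that direction. Of the 2153 that fell, 2072 (96.2%) were lower and 1463 (68%) passed. Calls in opposite directions were made for 3 genes. Of all 40 function lists, 34 had a median of the same sign in both comparisons. All 10 lists with non-overlapping array means were among them. Their medians in Dble::R6/2 against Hdac4HET ran from 0.25 for DNA replication to -0.16 for ion pumps and exchangers. Mcm7 read 0.77, Polr2a 1.04, Nup93 1.09, Car11 -1.42, Itpka -1.22 and Lamp5 -1.74. Axl read -0.58 there and Plin4 2.59. In a fit of all 34 arrays, the transgene effect differed between mice with and without the targeted Hdac4 allele for 1 probe set, of Prm1, at an adjusted p of 0.05 or less, while 4444 passed at an unadjusted p under 0.05. None of the genes named above passed that test, so no difference in size between the 2 comparisons was shown for them.

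**Figure D4:**
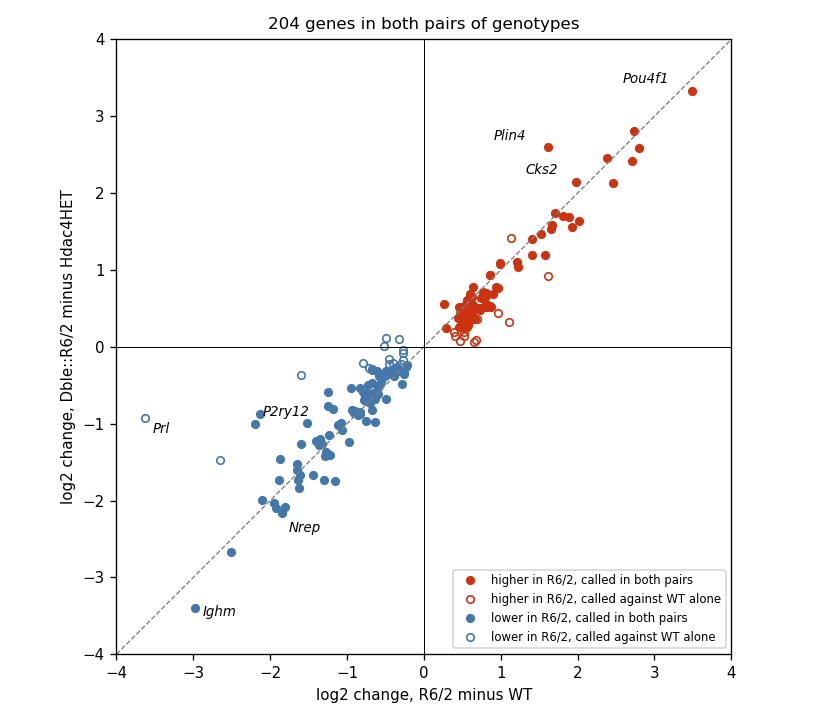
Log2 change of 204 genes named by rank or as leading members of a list, R6/2 minus WT on the x axis and Dble::R6/2 minus Hdac4HET on the y axis, with filled points called in both pairs of genotypes and open points called against WT alone. The points follow the dashed line of equal change, and Prl lies off it on the left.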

How the data were processed

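The authors hybridised biotinylated cRNA made from total cortical RNA to Affymetrix GeneChip whole-genome mouse arrays, with 1 array per sample, and excluded arrays of poor quality. The deposited values were log2 expression levels, and the method of normalization is not given in the sources used here. Nothing in the sources says that the samples came from separate mice, so p-values measure the spread between these samples. The number of arrays limits the precision.

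The platform annotation gave a single gene symbol for 34945 probe sets, several for 932 and no symbol for 9160. The highest mean over all 34 arrays chose the probe set of a gene. R6/2 and WT were compared with limma 3.58.1 (lmFit and eBayes, no covariate) in R 4.3.3, with Benjamini-Hochberg adjustment over all 45037 probe sets, after the script was tested on simulated data. Changes are log2 differences, R6/2 minus WT, with SE, and R6/2 values are set beside those of the WT arrays as background. The interaction of transgene and Hdac4 allele was fitted over 34 arrays. The alternatives were other normalizations, filters, covariates, weights and thresholds, left-out arrays and the methods' t-test. The counts of list members without the pituitary-high WT arrays or R6/2 replicates 2 or 3 were added after the data were seen.

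Genes were named as the 20 largest rises and falls outside immediate early, synaptic and cholesterol lists, up to 2 rises and 2 falls of each function list, the 5 largest t statistics in each direction, the 5 largest rises and falls among the 500 brightest genes and the markers a sentence needed. Members and lists were chosen with earlier results of these data known. The replicate numbers did not pair the samples.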

Additional observations from a re-analysis of the deposited data

Results flagged for a closer look

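In each group of arrays, the gap between the most extreme array and its neighbour was compared with the range of the group for 119 printed genes. Among 238 such groups 29 had an array far from the others, where chance gives about 1 in 20 groups. R6/2 replicate 2, the array with epidermal transcripts, was the extreme array in 16. It was the highest R6/2 array at 7.63 in Mcm6, 10.2 in Polr2a, 10.3 in Prmt2, 11.8 in Hars, 11.03 in Smad4, 9.19 in Foxo1, 7.99 in Shmt2, 7.19 in Tal1, 6.61 in Tpx2, 9.29 in Tbce and 7.47 in Ifit1. It was the lowest at 5.75 in Fads2, 7.22 in Tyro3, 7.51 in Car11, 5.87 in Med27 and 8.81 in Slc17a7. The change of Mcm6 was 0.56 without that array, that of Polr2a 1.16 and that of Tyro3 -1.23. The part of the epidermal transcripts in these values was not tested.

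WT replicate 8 was the extreme array in 5 genes. It read 6.77 in P2ry12 and 6.91 in Axl, lowest of its group, as well as 8.03 in Prkag2, 11.1 in Ewsr1 and 5.57 in Rfc4. Other genes stood out in WT replicate 1 (Taf5, 5.75), WT replicate 3 (Slc16a6, 7.11, and Penk, 10.2), WT replicate 4 (Il33, 8.14), WT replicate 6 (Eif5b, 8.05) R6/2 replicate 3 (Ttr, 12.99) and R6/2 replicate 7 (Gucy1a1, 8.60, and Cdh9, 7.15).

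The transgene effect differed between mice with and without the targeted Hdac4 allele for Prm1, a sperm chromatin protein. The interaction was 1.03 on the log2 scale (adjusted p = 0.000908), with a change of 0.05 in R6/2 against WT and of 1.08 in Dble::R6/2 against Hdac4HET.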

How the results depend on the processing

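The count of 12127 probe sets fell to 8040 without WT replicates 2, 6 and 7 and to 7964 at an adjusted p of 0.01. Without single arrays it ranged from 10767 (without WT replicate 6) to 12721 (without R6/2 replicate 2). It was 11352 with the replicate number as a block, a number that did not pair the samples, and 9407 without the 3 WT arrays and R6/2 replicate 2. The methods' t-test called 11545 after Benjamini-Hochberg adjustment. The other settings, including normalization, filter, array weights and sex, stayed within 1.5 times the count. Higher calls made up between 54.1% and 56.9% in every setting. Of 6668 values for 216 genes under 31 alternatives, 6534 kept their direction and call, 131 lost the call and 3 reversed. The reversals came when all probe sets of a gene were averaged, which gave 0.0515 for Ap1s2, -0.0302 for Sgpp1 and 0.11 for Trak1, and the cause was not tested. Averaging lowered the median of translation factors from 0.10 to 0.04 and ended the call of Foxo1 (adjusted p = 0.0565). Of 1458 list medians 1435 moved by less than the spread between arrays. Signal near background limits genes such as Pou4f1, Tpx2 and Stil in WT.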

Other observations

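Some genes not described above changed as well. The skin chemokine Ccl27a, which is also made in brain, fell by 1.22 (adjusted p = 8.63e-05). The ubiquitin-binding protein Ubap2l rose by 1.21 and had one of the 5 largest positive t statistics, and Angpt1, a ligand that stabilises vessels, rose by 0.99. Gap junction and chloride channel genes counted 10 higher and 5 lower of 45 (33.3% passed). Cadherins and protocadherins counted 10 and 10 of 49 (40.8%). Nuclear receptors other than those of retinoids and thyroid hormone counted 9 and 7 of 42 (38.1%). Each share was under the 42.5% of all genes above background. Among cadherins Cdh9, of the classical type found on neurons, changed by -0.61.

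Markers of oligodendrocyte precursors fell in 2 of 4, striatal neuron markers in 2 of 5, meningeal markers rose in 2 (1 without R6/2 replicate 3) and fell in 1 of 7, red blood cell markers fell in 1 of 3 and markers of other brain regions in 1 of 9, which was Pomc. Pituitary markers fell in 3 of 8, and 1 of 12 epidermal markers rose (3 without R6/2 replicate 2). The epidermal marker Lor rose by 0.73 and was higher in every R6/2 array than in any WT array. The array means of the striatal markers overlapped between the groups.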
